A study of Rattus norvegicus with 8 samples.

Results

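The metallothionein gene Mt1 and 9 genes of antioxidant defence and detoxification (Gsta2, Gsta5, Ptgr1, Hmox1, Nqo1, Gclc, Gclm, Txnrd1 and Srxn1) were followed across SF2 cells, a rat dental epithelial line from the cervical loop of the mandibular incisor. The 10 genes were chosen by symbol from the 30240 rows of the deposited table, with their differences between the genotypes already known, so those differences are given as a description with no p-value. Of the 10, 9 reached 1 CPM (the reads of a gene scaled to a common library size) in at least 4 libraries and were tested among 6849 genes. Srxn1 did not. The 8 libraries were 1 each of AmeloD-overexpressing and Control cells, with the plasmid label pCMV6.ODAM or pCMV6 and the label TGF or N, which the labels do not spell out. AmeloD is a transcription factor of the basic helix-loop-helix family, found in dental epithelium. No combination was replicated, and the labels state neither the construct or clone behind the overexpression nor whether cultures were separate, so errors measure only the spread between these libraries. Each comparison set 4 libraries against 4.

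Metallothioneins are small cysteine-rich proteins that bind zinc, copper and cadmium, and their genes are switched on by the zinc-sensing factor MTF1 at metal response elements. The other 9 genes belong to the set known as targets of NRF2 (encoded by Nfe2l2), which binds antioxidant response elements, is marked for degradation by KEAP1 and competes with the repressor BACH1. In rodent incisors the enamel-forming cells handle much iron and deposit it in the enamel, and mice that lack NRF2 are known for incisors with little of that brown pigment.

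Promoter sequences are shown for the metallothionein pair and for the Gsta2 and Gsta5 genes, the members whose levels stood furthest apart between the genotypes. They are the 250 bases before and 50 after the transcription start in RefSeq (build GRCr8), printed 5′ to 3′ on the gene's strand. Capitals mark the metal response core (TGCACNC or TGCGCNC, either strand) in Mt1 (chr19:10832926-10833225, minus strand) and Mt2A (chr19:10838659-10838958, minus strand). In Gsta2 (chr8:88077043-88077342, minus strand) and Gsta5 (chr8:87988104-87988403, plus strand) they mark the antioxidant response core (TGACNNNGC, either strand), of which Gsta5 held no match.
Mt1: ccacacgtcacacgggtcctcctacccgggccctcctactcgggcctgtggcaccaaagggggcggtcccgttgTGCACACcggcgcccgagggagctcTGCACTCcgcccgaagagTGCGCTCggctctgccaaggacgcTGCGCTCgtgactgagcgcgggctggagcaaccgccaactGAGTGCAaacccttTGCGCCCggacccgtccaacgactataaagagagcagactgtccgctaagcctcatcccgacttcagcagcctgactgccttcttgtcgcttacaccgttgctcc
Mt2A: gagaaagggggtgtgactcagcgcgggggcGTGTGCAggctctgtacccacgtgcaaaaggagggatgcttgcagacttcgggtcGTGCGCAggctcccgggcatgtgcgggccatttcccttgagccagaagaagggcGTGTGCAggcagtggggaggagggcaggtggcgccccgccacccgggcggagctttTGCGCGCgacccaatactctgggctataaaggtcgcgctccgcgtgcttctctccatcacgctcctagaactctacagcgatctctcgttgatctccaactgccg
Gsta2: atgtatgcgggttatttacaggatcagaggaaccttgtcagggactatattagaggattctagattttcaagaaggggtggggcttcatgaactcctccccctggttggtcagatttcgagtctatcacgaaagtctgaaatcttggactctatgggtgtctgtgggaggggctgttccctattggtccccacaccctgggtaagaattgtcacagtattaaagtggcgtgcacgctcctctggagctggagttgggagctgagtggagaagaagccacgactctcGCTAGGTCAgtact
Gsta5: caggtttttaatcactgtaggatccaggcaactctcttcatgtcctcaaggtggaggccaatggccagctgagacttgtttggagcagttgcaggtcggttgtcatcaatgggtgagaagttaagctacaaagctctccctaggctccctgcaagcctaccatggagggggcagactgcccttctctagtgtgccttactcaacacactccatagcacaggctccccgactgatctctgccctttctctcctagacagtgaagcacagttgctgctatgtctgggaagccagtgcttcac

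The Mt1 window held 6 matches to the metal core, and the neighbouring Mt2A window held 4. Among 33469 rat promoter windows of the same length 24.2% held at least 1 such match, 0.439% held 4 or more and 0.0388% held 6 or more. The antioxidant core was found in 12.1% of the windows. RefSeq entries were matched for 8 members. The antioxidant core was present once in Mt1 (TGACTGAGC, starting 101 bases before the start site), Gsta2 (GCTAGGTCA, from base 37 after it), Gclm (GCTTAGTCA, 172 bases before) and the second listed start of Txnrd1 (GCTTTGTCA, 78 bases before). Mt2A also held it once, and Gsta2 and Gclm each held 2 metal cores, those of Gsta2 overlapping each other. Nqo1, Gclc and Srxn1 held neither core in this window. Ptgr1 and Hmox1 had no entry. A match is a description of the letters only.

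**Figure D1:**
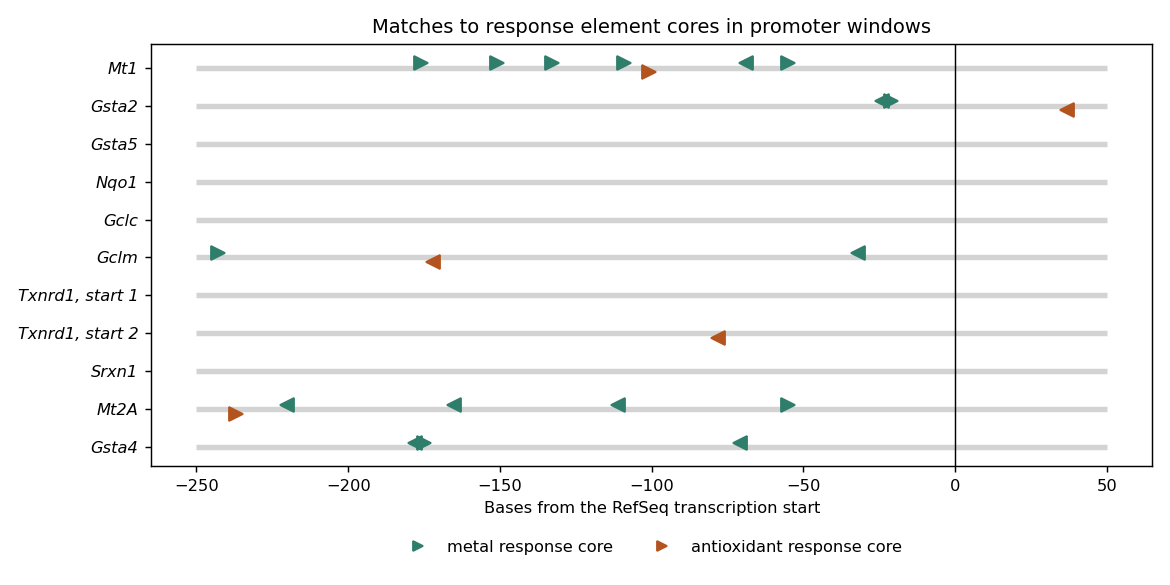
Matches to the metal response core (green) and the antioxidant response core (orange) in the promoter windows of 8 members and of Mt2A and Gsta4. The x axis is the distance in bases from the RefSeq transcription start, grey bars are the windows, and triangles point along the strand of the match. Mt1 carries 6 metal cores and 1 antioxidant core.

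The libraries were read to 10568146 to 17775226 reads, of which 15.6% to 17.5% lay in the table. The AmeloD libraries were the shallower ones, with 10568146 to 13668736 reads against 14766931 to 17775226 in the Control libraries, and 1 read was worth 0.0563 to 0.0946 CPM. Ascl5, the rat gene that encodes AmeloD, had 0 reads in every library, which allows up to 3 reads (0.169 to 0.284 CPM) in each, so the overexpression could not be checked in these values. For Odam the 4 pCMV6.ODAM libraries held 31 reads, 4 of them in AmeloD and 27 in Control cells, and the 4 pCMV6 libraries held 1. Summed epithelial markers (8 of 10 matched, all 8 tested) stood at 1125 to 1219 CPM in AmeloD and 778 to 936 CPM in Control libraries. Of 8 fibroblast markers, Col1a2, Pdgfrb, Dcn, Lum and Thy1 had 0 reads in all libraries, and the list summed to 17.4 to 26.4 CPM in AmeloD against 33.4 to 63.0 CPM in Control libraries. Of 8 leukocyte markers, Tyrobp, Csf1r, Lyz2, Cd52 and Laptm5 had 0 reads, and the list summed to 2.77 to 3.73 CPM against 0.876 to 1.63 CPM. Of 6 endothelial markers, Kdr and Tek had 0 reads, and the list summed to 0.593 to 2.05 CPM against 1.01 to 2.01 CPM. In each of the fibroblast, leukocyte and endothelial lists only 1 gene reached 1 CPM in at least 4 libraries. These sums are therefore no measure of the content of a cell type. The part of these marker shifts and of depth in the results was not tested. In bulk RNA, fewer cells of a type and less RNA per cell cannot be told apart.

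Mt1, Gsta5, Gsta2 and Hmox1 were lower in each AmeloD library than in any Control library, and Ptgr1 was lower in each of the 4 matched pairs. Nqo1, Gclc, Gclm and Txnrd1 had differences of 0.13 or less on the log2 scale. The median log2 fold change of the 9 tested members was -0.70, against 0.05 over all tested genes. Of all tested genes, 5.53% had the 4 AmeloD libraries below the 4 Control libraries, beside 4 of the 9 members. Of these members, Gsta5 reached 1 CPM in 5 libraries and Gsta2 in 6. Both thus passed the filter through the Control libraries, where they were high, so the count of members is a description only. All fold changes are on the scale log2(CPM + 1), AmeloD over Control, which understates the change of genes near 1 CPM.

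Mt1 (ENSRNOG00000025764, chromosome 19, 10826032 to 10827049, minus strand, mRatBN7.2) had 8.12 and 14.6 CPM with TGF and 18.2 and 16.0 CPM with N in AmeloD cells (pCMV6.ODAM before pCMV6 in each pair, here and below). In Control cells it had 72.8 and 65.5 CPM with TGF and 96.8 and 95.7 CPM with N. The highest AmeloD library thus lay well under the lowest Control library. The log2 fold change was -2.49 ± 0.13 (SE), and the means were 14.2 ± 4.32 CPM in AmeloD and 82.7 ± 15.9 CPM in Control cells (SD, n = 4 each). The 683 AmeloD and 5244 Control reads gave a ratio of CPM of 0.171 (exact 95% interval 0.158 to 0.186, counting error only). The fold change was -2.43 among the N libraries and -2.55 among the TGF libraries.

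Mt2A, which encodes the second widely expressed metallothionein and is no member, lies next to Mt1 on chromosome 19 (10832002 to 10832784, minus strand). It had 1.61 and 2.59 CPM with TGF and 3.49 and 2.84 CPM with N in AmeloD cells, against 5.65 and 4.39 CPM with TGF and 9.89 and 9.45 CPM with N in Control cells. The groups did not overlap, and the fall passed the test (log2 fold change -1.17 ± 0.18, adjusted p = 4.04e-05, limma), also in all 14 alternatives tried. Mt1-ps3, a row on chromosome 17 (74786654 to 74787135) whose symbol marks an Mt1 pseudogene, was examined after its values were seen. It held 5.04 to 8.88 reads per 100 Mt1 reads in each library and had a log2 fold change of -1.49 ± 0.18. The sources used here do not say how reads that match near-identical copies were counted, so the levels of Mt1, Mt2A and Mt1-ps3 may share reads.

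**Figure D2:**
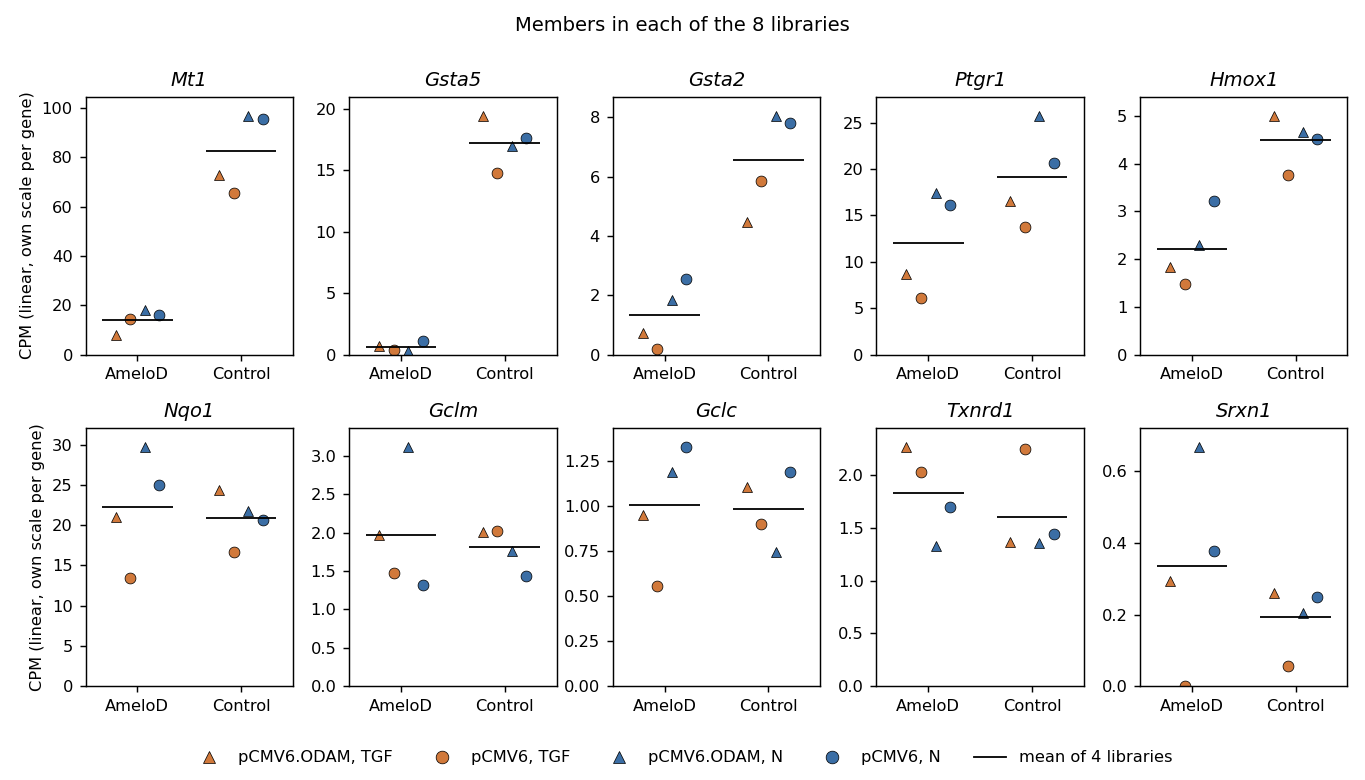
CPM of the 10 members in each of the 8 libraries, on a linear axis with its own scale for each gene. Points are single libraries, triangles pCMV6.ODAM and circles pCMV6, orange TGF and blue N, and lines are means of 4 libraries. Mt1, Gsta5, Gsta2 and Hmox1 show no overlap between AmeloD and Control, while the lower row overlaps throughout.

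Gsta5 and Gsta2 encode alpha-class glutathione S-transferases, which join glutathione to electrophilic toxins and lipid peroxidation products. Gsta5 (ENSRNOG00000000201, chromosome 8, 79105661 to 79117472, plus strand) had 0.732 and 0.370 CPM with TGF and 0.297 and 1.14 CPM with N in AmeloD cells. In Control cells it had 19.4 and 14.8 CPM with TGF and 16.9 and 17.6 CPM with N. Every Control library was above every AmeloD library. The log2 fold change of -3.50 ± 0.18 was the lowest among the members. It rested on 30 AmeloD and 1094 Control reads, a ratio of CPM of 0.0361 (exact 95% interval 0.0242 to 0.0518).

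Gsta2 (ENSRNOG00000029861, chromosome 8, 79184322 to 79196798, minus strand) had 0.732 and 0.185 CPM with TGF and 1.85 and 2.55 CPM with N in AmeloD cells. Its Control values were 4.48 and 5.85 CPM with TGF and 8.06 and 7.82 CPM with N. The groups were again apart, and within each genotype the TGF libraries were the lower ones. The log2 fold change was -1.79 ± 0.19, from 64 AmeloD and 417 Control reads, a ratio of CPM of 0.202 (exact 95% interval 0.153 to 0.263). The values of both genes depended on the processing: edgeR on the recovered reads gave -4.84 for Gsta5 and -2.47 for Gsta2.

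Gsta4, an alpha-class gene on the same stretch of chromosome 8 (79066934 to 79084182) that clears the lipid aldehyde 4-hydroxynonenal, was looked at after its values were seen. It had 2.78 and 1.76 CPM with TGF and 106 and 2.93 CPM with N in AmeloD cells, against 4.03 and 2.31 CPM with TGF and 4.60 and 4.63 CPM with N in Control cells. The AmeloD pCMV6.ODAM N library alone stood apart. Its genotype difference of 0.77 did not pass the test (adjusted p = 0.324, limma) and was -0.34 without that library (adjusted p = 0.309). Reads of the closely related Gsta genes may be shared in ways that the sources used here do not describe.

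**Figure D3:**
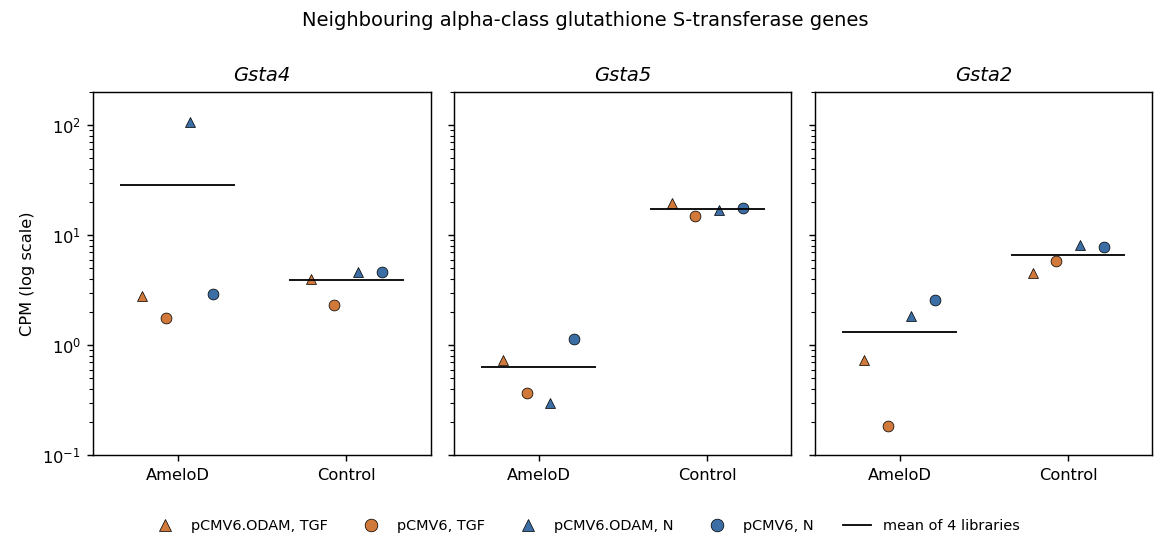
CPM of 3 alpha-class glutathione S-transferase genes of chromosome 8 by library, on a log axis (triangles pCMV6.ODAM, circles pCMV6, orange TGF, blue N, lines means of 4 libraries). Gsta5 and Gsta2 are lower in all AmeloD libraries, while Gsta4 is at 106 CPM in AmeloD pCMV6.ODAM N and at 4.63 CPM or less elsewhere.

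Ptgr1 encodes prostaglandin reductase 1, which inactivates leukotriene B4 and reduces reactive alkenals. It lies on chromosome 5 (73784009 to 73802666, minus strand). It had 8.63 and 6.10 CPM with TGF and 17.4 and 16.1 CPM with N in AmeloD cells, against 16.5 and 13.8 CPM with TGF and 25.7 and 20.6 CPM with N in Control cells. The groups overlapped, because the AmeloD N libraries lay at the level of the Control TGF libraries, but AmeloD was lower in 4 of 4 matched pairs. The log2 fold change was -0.70 ± 0.14, with -0.96 among the TGF libraries and -0.44 among the N libraries.

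Hmox1 encodes heme oxygenase 1, the inducible enzyme that breaks heme down to biliverdin, iron and carbon monoxide, and is a classical target of BACH1 repression. It lies on chromosome 19 (13467244 to 13474079, plus strand). It had 1.83 and 1.48 CPM with TGF and 2.30 and 3.22 CPM with N in AmeloD cells, against 5.004 and 3.77 CPM with TGF and 4.67 and 4.51 CPM with N in Control cells. No AmeloD library reached the lowest Control library. The log2 fold change was -0.80 ± 0.18, from 106 AmeloD and 285 Control reads (ratio of CPM 0.490, exact 95% interval 0.388 to 0.614).

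Nqo1 encodes the quinone reductase that is widely used as a readout of NRF2 activity, and lies on chromosome 19 (35295573 to 35310557, minus strand). It had 21.0 and 13.4 CPM with TGF and 29.7 and 24.98 CPM with N in AmeloD cells, against 24.3 and 16.7 CPM with TGF and 21.7 and 20.7 CPM with N in Control cells. The groups overlapped fully, with means of 22.3 ± 6.89 CPM in AmeloD and 20.9 ± 3.16 CPM in Control cells (SD, n = 4 each) and a log2 fold change of 0.05 ± 0.14. The difference was 0.35 among the N libraries and -0.25 among the TGF libraries.

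Gclc and Gclm encode the catalytic and modifier subunits of glutamate-cysteine ligase, the first step of glutathione synthesis, and Txnrd1 the cytosolic thioredoxin reductase. Gclc had 0.951 and 0.554 CPM with TGF and 1.19 and 1.32 CPM with N in AmeloD cells, against 1.10 and 0.900 CPM with TGF and 0.745 and 1.19 CPM with N in Control cells. Gclm ranged over 1.32 to 3.11 CPM in AmeloD and 1.44 to 2.03 CPM in Control cells. Txnrd1 ranged over 1.33 to 2.27 CPM in AmeloD and 1.35 to 2.25 CPM in Control cells. These groups overlapped, and the log2 fold changes were 0.00 ± 0.19 for Gclc, 0.05 ± 0.19 for Gclm and 0.13 ± 0.18 for Txnrd1. Only 112, 215 and 193 reads stood behind the 3 genes over all libraries, so that the exact 95% intervals of the ratio of CPM ran from 0.690 to 1.51 for Gclc, from 0.850 to 1.48 for Gclm and from 0.839 to 1.51 for Txnrd1. Srxn1, which encodes sulfiredoxin, the enzyme that repairs overoxidised peroxiredoxins, had 17 AmeloD and 12 Control reads in all and 0 in AmeloD pCMV6 TGF, which allows up to 0.277 CPM there. The ratio of CPM was 1.87 for AmeloD over Control (exact 95% interval 0.839 to 4.28) and, from 9 TGF and 20 N reads, 0.428 for TGF over N (0.171 to 0.983). These intervals cover counting error only, and Srxn1 was not tested.

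**Figure D4:**
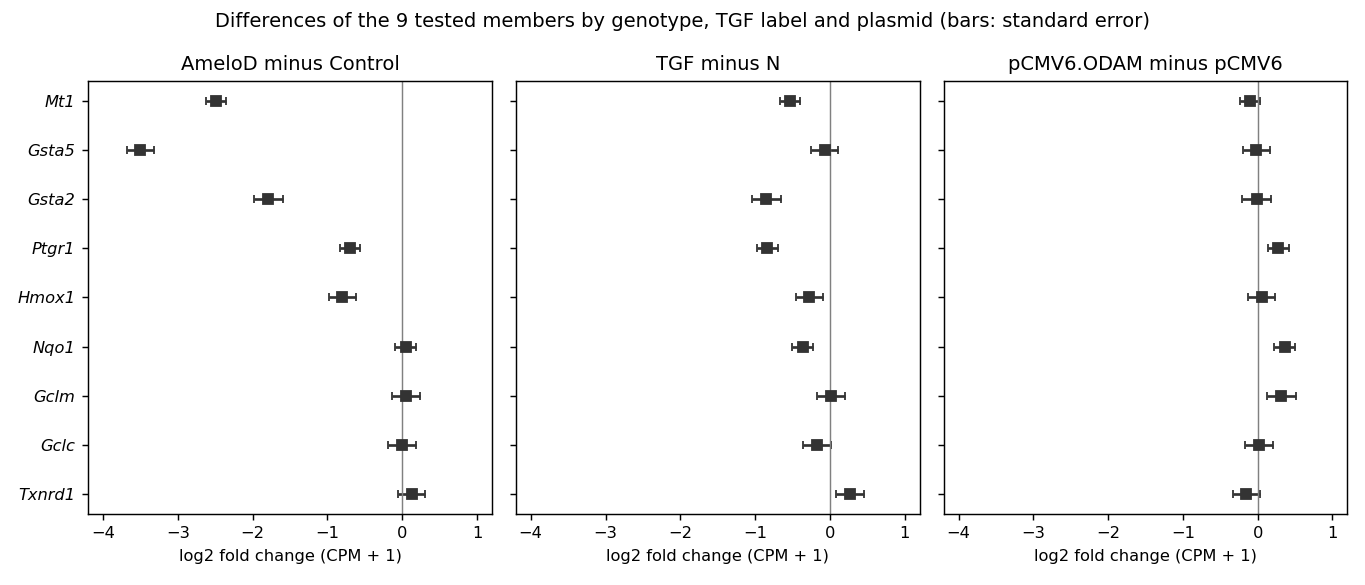
Log2 fold changes of the 9 tested members on the log2(CPM + 1) scale (x axes) for AmeloD over Control, TGF over N and pCMV6.ODAM over pCMV6, with bars for the standard error of the limma fit over 8 libraries. Gsta5, Mt1 and Gsta2 are furthest below 0 by genotype, and Gsta2, Ptgr1 and Mt1 by TGF.

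With TGF, Mt1 and Gsta2 fell, each in 4 of 4 matched pairs, and no tested member passed the test upward. By comparison 0.277% of all tested genes fell and 1.53% rose with TGF. Because the members were chosen with earlier results of these data known, their p-values, here and below, do not allow for that choice. Mt1 had a log2 fold change of -0.54 ± 0.13 (95% interval -0.81 to -0.26, adjusted p = 0.035, limma), with -0.60 in AmeloD and -0.47 in Control cells. Gsta2 had -0.85 ± 0.19 (95% interval -1.25 to -0.45, adjusted p = 0.017), with -1.15 in AmeloD and -0.54 in Control cells. The AmeloD value rested on 10 and 2 reads with TGF and 25 and 27 reads with N (pCMV6.ODAM before pCMV6). The library with 2 reads lay under the floor of 3 reads. The call of Mt1 ended without AmeloD pCMV6.ODAM N (adjusted p = 0.244), AmeloD pCMV6.ODAM TGF (value -0.35), Control pCMV6 N, Control pCMV6.ODAM N or Control pCMV6 TGF, and with no filter on low values (adjusted p = 0.142). That of Gsta2 ended without AmeloD pCMV6 N, AmeloD pCMV6.ODAM N, AmeloD pCMV6 TGF (adjusted p = 0.124) or Control pCMV6.ODAM TGF, with no filter (0.0856) and in edgeR on the recovered reads (0.0596).

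Ptgr1 was also lower with TGF in 4 of 4 pairs, with means of 11.3 ± 4.74 CPM with TGF and 20.0 ± 4.29 CPM with N (SD, n = 4 each) and a log2 fold change of -0.84 ± 0.14. It was among the 5 largest falls with TGF in the table and may have been chosen for it, so it has no p here. Its fold change was -1.10 in AmeloD and -0.58 in Control cells.

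The remaining members did not pass the test for TGF. Nqo1 had -0.37 ± 0.14 (95% interval -0.65 to -0.08, adjusted p = 0.241), with -0.67 in AmeloD and -0.07 in Control cells. Hmox1 had -0.28 ± 0.18 (95% interval -0.65 to 0.10, adjusted p = 0.605) and Gsta5 had -0.07 ± 0.18 (-0.45 to 0.31, adjusted p = 0.941). Gclc had -0.17, Gclm 0.02 and Txnrd1 0.27 ± 0.18, the last of them positive in 4 of 4 pairs (adjusted p = 0.625). No member had all 4 TGF libraries below all 4 N libraries, which 1.15% of tested genes had. As a description, the members' median was -0.28, against 0.04 over all tested genes. Mt2A had -0.64 ± 0.18 (adjusted p = 0.068).

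The genotype and TGF terms were not shown to depend on each other for any tested member. The interaction of Nqo1 was -0.60 ± 0.27 (unadjusted p = 0.0325, adjusted p = 0.999, limma) and that of Ptgr1 was -0.52 ± 0.28 (unadjusted p = 0.0685, adjusted p = 0.999). Gsta2 had -0.61 ± 0.38 (adjusted p = 0.999). Over all tested genes 0.0146% were called for this interaction and 0% for genotype by plasmid, for which the members' adjusted p was 0.999 or above. At unadjusted p under 0.05, 308 genes passed for genotype by plasmid, and edgeR and DESeq2 each called 0.

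For the plasmid label no tested member and 0% of all tested genes passed the test (limma, 454 genes at unadjusted p under 0.05, with 0 called by edgeR and 1 by DESeq2). Nqo1 had 0.36 ± 0.14, pCMV6.ODAM over pCMV6 (95% interval 0.07 to 0.65, unadjusted p = 0.017, adjusted p = 0.710), and was positive in 4 of 4 pairs. Ptgr1 had 0.28 ± 0.14 (-0.01 to 0.56, adjusted p = 0.739), also positive in 4 of 4 pairs, and Gclm had 0.32 ± 0.19 (-0.08 to 0.71, adjusted p = 0.786). The other 6 tested members lay between -0.15 and 0.05.

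Nfe2l2, Keap1, Bach1 and Mtf1, the regulators named above, did not pass the genotype test. Nfe2l2 had 11.1 and 15.1 CPM with TGF and 15.7 and 22.8 CPM with N in AmeloD cells, against 22.4 and 17.1 CPM with TGF and 17.9 and 19.3 CPM with N in Control cells. These values overlapped, with a log2 fold change of -0.27 ± 0.15 (adjusted p = 0.277, limma). Keap1 had 0.22 ± 0.18 (adjusted p = 0.481), Bach1 -0.00 ± 0.19 (adjusted p = 0.996) and Mtf1 0.09 ± 0.20 (adjusted p = 0.817). With TGF the 4 genes had -0.22, -0.25, -0.42 and -0.11 in the same order, with adjusted p of 0.376 or above. Bach1 had 0.65 ± 0.19 for pCMV6.ODAM over pCMV6 (adjusted p = 0.665).

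Around the members, 10 lists of related genes held 180 symbols, of which 172 were in the table and 96 were tested. By genotype 14 of the 96 rose (14.6%) and 7 fell (7.29%), against 9.07% and 4.75% of all tested genes. The lists were chosen with earlier results of these data known. Their shares, here and with TGF below, are therefore a description. The p-values of list genes, Mt2A among them, do not allow for that choice. Of all calls by genotype 65.6% were rises, a share of 52.9% under TMM scaling, 49.0% with equal medians, 54.2% in edgeR and 53.3% in DESeq2. Of the 21 list genes called, Mt2A, Glrx, Me1, Idh1, Ephx1, Park7, Selenow and Fth1 kept their call in all 14 alternatives. The other 13 each lost it when 1 library was left out, for between 1 and 6 of the 8 libraries, and each of the 8 libraries ended at least 1 call (highest adjusted p = 0.258).

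Among the genes for glutathione synthesis, reduction and peroxidases, 3 of 15 tested rose and 0 fell. Glrx, encoding the glutaredoxin that removes glutathione from proteins, had 108 ± 35.0 CPM in AmeloD and 42.9 ± 7.37 CPM in Control cells (SD, n = 4 each; log2 fold change 1.27 ± 0.12, adjusted p = 5.52e-08). Chac1, which degrades glutathione (0.56 ± 0.18, adjusted p = 0.0351), and Gpx4, the peroxidase of membrane lipids (0.36 ± 0.11, adjusted p = 0.0253), lost their calls under TMM scaling. The list's median was 0.08.

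Of 9 other glutathione S-transferases tested, 1 rose and 1 fell. The fall was Mgst3, a microsomal member (8.67 ± 3.28 CPM in AmeloD and 12.8 ± 2.84 CPM in Control cells, -0.54 ± 0.17, adjusted p = 0.0311), and the rise was Gstm5, of low level (0.63 ± 0.18, adjusted p = 0.0219). The list's median was 0.26. Of 12 genes of the thioredoxin and peroxiredoxin system, 1 rose, Prdx2 (0.36 ± 0.11, adjusted p = 0.0341), and 0 fell, with a median of 0.17. Of 7 regulators of NRF2, 1 rose, the related factor Nfe2l1 (0.30 ± 0.10, adjusted p = 0.0396), and 0 fell, with a median of -0.00. Both calls ended under TMM scaling.

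Of 12 other NRF2 target enzymes and transporters tested, 3 rose and 1 fell, with a median of 0.21. Idh1, a cytosolic source of NADPH, had 21.0 ± 2.32 CPM in AmeloD and 9.73 ± 1.12 CPM in Control cells (1.04 ± 0.13, adjusted p = 2.98e-06). The other rises were Me1, malic enzyme (0.77 ± 0.18, adjusted p = 0.00371), and Ephx1, an epoxide hydrolase (0.87 ± 0.19, adjusted p = 0.0022), both near 1 CPM. Me1 averaged 1.40 CPM in AmeloD and 0.403 CPM in Control cells, and Ephx1 1.59 and 0.425 CPM. Both thus passed the filter on low values only through the AmeloD libraries, where they were higher, which limits what their calls can show. The fall was Akr1b10, an aldo-keto reductase (-0.37 ± 0.12, adjusted p = 0.0376).

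Heme and iron genes moved both ways, with 3 of 15 tested up, 2 down and a median of 0.26. Fth1, the heavy chain of the iron store ferritin, had 50.9 ± 6.41 CPM in AmeloD and 74.3 ± 7.80 CPM in Control cells (-0.54 ± 0.11, adjusted p = 0.00183), with no overlap. Ftl1, the light chain, had -0.45 ± 0.15 (adjusted p = 0.0453). Its symbol stands on 2 rows, of which only the first is given here. The heme transporter Slc48a1 (0.65 ± 0.17, adjusted p = 0.00977), the constitutive heme oxygenase Hmox2 (0.59 ± 0.18, adjusted p = 0.0298) and the biliverdin reductase Blvrb (0.45 ± 0.13, adjusted p = 0.0219) rose. Hmox1 and Hmox2 thus lay on opposite sides of 0, although the difference between them was not tested.

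Of 11 tested genes of a list named for superoxide and peroxide removal, not all of which act directly in it, 2 rose and 1 fell, with a median of -0.03. Park7, a redox-sensitive chaperone, had 16.7 ± 2.26 CPM in AmeloD and 10.1 ± 1.29 CPM in Control cells (0.68 ± 0.14, adjusted p = 0.00109), and Pon2 had 0.54 ± 0.17 (adjusted p = 0.0348). Selenow, whose symbol stands on 2 rows, had -0.51 ± 0.12 (adjusted p = 0.00568) on the first of them, and the other is not given here. Of 9 metallothioneins and zinc transporters 1 fell, Mt2A, and 0 rose, with a median of 0.02. Of 4 genes of the aryl hydrocarbon receptor pathway 1 fell, Tiparp (-0.52 ± 0.16, adjusted p = 0.0327), and the median was -0.02. Of 2 glucocorticoid-responsive genes 0 passed. Klf9, the more abundant, had 0.29 ± 0.17 (adjusted p = 0.309). Gstm5, Me1, Ephx1, Hmox2, Slc48a1 and Pon2 were named after their values were seen.

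**Figure D5:**
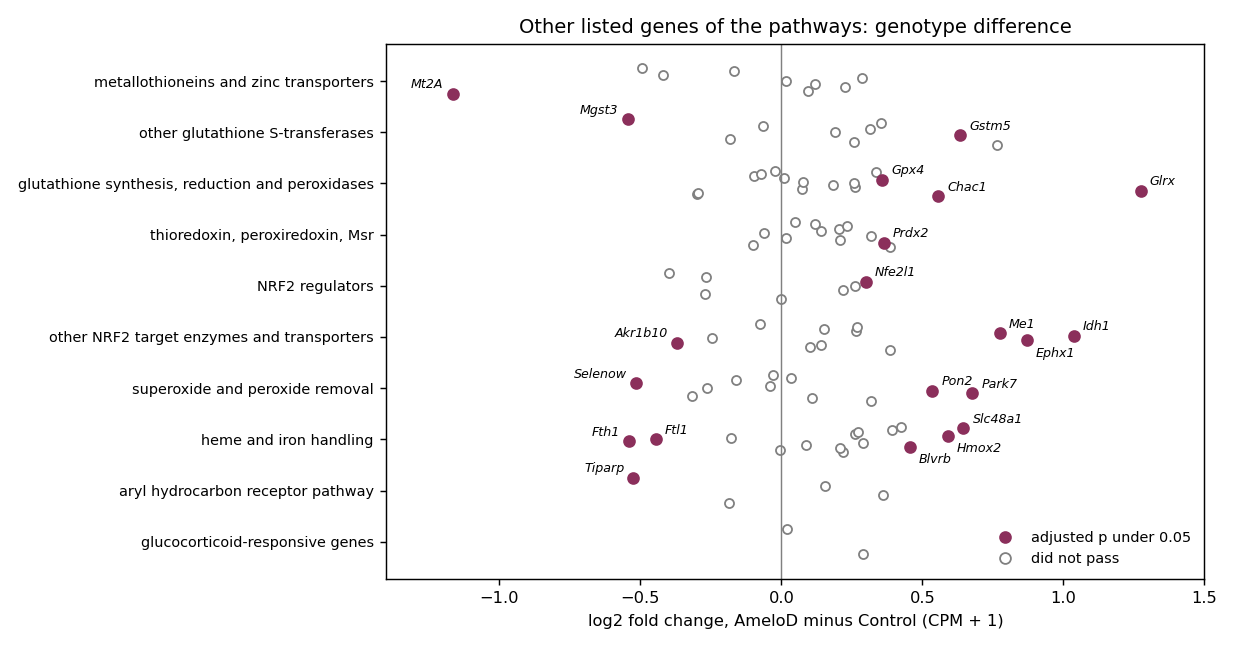
Log2 fold change by genotype, AmeloD over Control on the log2(CPM + 1) scale (x axis), of the 96 tested genes of 10 lists (rows). Filled points passed the test at an adjusted p under 0.05 and are named, open points did not. Glrx and Idh1 lie furthest right and Mt2A furthest left.

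With TGF, 2 of the 96 list genes rose and 0 fell, against 1.53% and 0.277% of all tested genes. Prdx5, a peroxiredoxin, had 58.8 ± 10.6 CPM with TGF and 40.8 ± 3.41 CPM with N (SD, n = 4 each; 0.50 ± 0.11, adjusted p = 0.0171), and Gstm2, a mu-class transferase, had 12.3 ± 3.29 CPM with TGF and 7.56 ± 0.807 CPM with N (0.61 ± 0.16, adjusted p = 0.042). Each call ended when any of 6 libraries was left out, and that of Gstm2 also under TMM scaling (highest adjusted p = 0.244). In the 8 lists with no call, the most abundant genes had log2 fold changes of 0.41 (Slc39a1), -0.11 (Gpx1), 0.17 (Nfe2l1), -0.23 (Akr1b10), 0.14 (Selenos), 0.01 (Fth1), 0.38 (Tiparp) and 0.00 (Klf9). By plasmid 0 of the 96 passed. The most abundant gene of each list lay between -0.20 (Tiparp) and 0.28 (Nfe2l1, adjusted p = 0.677).

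Likeness to the members was measured as Pearson's r of log2(CPM + 1) over the 8 libraries, as a description, with 1408 genes averaging 10 CPM or more as candidates. The points share the genotypes, the depth and the scaling of the libraries. Mt1 was closest to Gpi (r = 0.989), Rps21-ps1 (0.981) and Ldha (0.971), of which Gpi and Ldha encode glycolytic enzymes. Ldha had means of 73.8 CPM in AmeloD and 169 CPM in Control cells. Ptgr1 was closest to Rpl35a (0.944), Pgam1 (0.926) and Pgk1 (0.923), of which Pgam1 and Pgk1 encode glycolytic enzymes. Nqo1 was closest to Rps2-ps6 (0.927), Rpl38 (0.881) and Sat1 (0.870).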

How the data were processed

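Libraries were prepared from RNA with an integrity number of at least 9.0, using a 3′ transcriptome kit (QIAseq UPX), and read as 150-base paired ends, per the labels' protocols. STAR 2.7.10a aligned the trimmed reads to mRatBN7.2 and featureCounts 2.0.1 counted them, versions per the submitters' processing notes. The sources used here give neither the use of molecular identifiers nor strand. The authors deposited CPM per gene, scaled to a library total of which the table holds a part. All values (100%) were whole reads within a tolerance of 0.01.

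The test was limma 3.58.1 (R 4.3.3) on log2(CPM + 1) with a trended prior and additive terms for genotype, plasmid and TGF across 8 libraries (4 residual degrees of freedom, 3 with an interaction), two-sided, adjusted by Benjamini-Hochberg over the 6849 genes reaching 1 CPM in at least 4 libraries, with a threshold of 0.05. Without replicated combinations the residual spread also holds interactions. The standard errors use limma's moderated variance, which draws on the other genes as well as on the gene's own spread. The 14 alternatives were a pseudocount of 0.5, no filter, TMM scaling, equal medians, edgeR 4.0.16 and DESeq2 1.42.0 on the recovered reads, and each library left out. Floors are 3 reads. Exact intervals of a ratio of CPM cover counting error only, while intervals of log2 fold changes come from the limma fit.

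The members and lists were chosen with earlier results of these data known. Named were the members, Nfe2l2, Keap1, Bach1, Mtf1 and Mt2A, and per list and comparison up to 3 called genes averaging 5 CPM or more, or the most abundant where none passed. Promoters are from RefSeq.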

Additional observations from a re-analysis of the deposited data

Results flagged for a closer look

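In 26 groups of 4 libraries (13 genes in each genotype), 2 had a library far from the other 3. Chance alone marks about 1 in 20 groups. Gsta4 and Mt1-ps3 were included after their values were seen, so this count is a description and no test. Gsta4 was at 106 CPM in AmeloD pCMV6.ODAM N, against 1.76 to 2.93 CPM in the other AmeloD libraries, a gap of 0.989 of the group's range and beyond Dixon's 95% critical value. That library held 1428 of the gene's 1761 reads, and no other gene of the table had at least 10 CPM and 10 times its value in all 7 other libraries, in any library. Without it the log2 fold changes of Gsta4 were -0.46 for TGF (-1.56 with it) and 0.35 for the plasmid (1.45 with it). Txnrd1 was at 2.25 CPM in Control pCMV6 TGF, against 1.35 to 1.44 CPM in the other Control libraries, a gap of 0.905 of the range.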

How the results depend on the processing

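The members had 702 values, from the 14 alternatives and from the N, TGF, pCMV6, pCMV6.ODAM, AmeloD or Control libraries alone. These subsets have no p-value and so could not lose a call. Of the 702, 0 changed sign on a called value and 12 lost a call (Mt1 and Gsta2 with TGF). Movement beyond the residual spread was checked for genotype and in the subsets only, and 16 values had it. The other 674 include uncalled values that changed sign, such as Gclm with TGF. With a pseudocount of 0.5, edgeR and DESeq2 the genotype fold changes were -4.02, -4.84 and -4.86 for Gsta5. For Gsta2 they were -2.13, -2.47 and -2.56. The pseudocount shrinks low genes, and edgeR and DESeq2 also differ in scaling and model. Hmox1 had -1.12 and -1.13 in edgeR and DESeq2. The number of genes called with TGF was 124, 67 with no filter, and 71 to 104 with a library left out. Of its calls 84.7% were rises, 74.8% under TMM scaling and with equal medians, 75.2% in edgeR and 70.8% in DESeq2. By genotype 946 genes were called, and 642 to 924 with a library left out. The plasmid call count of 0 was 1 in DESeq2 and 0 to 2 with a library left out. Genotype by TGF, with 1 call, had 0 with a pseudocount of 0.5, no filter, edgeR or DESeq2, and 0 to 7 with a library left out. Genotype by plasmid had 0 to 2. The cause of these shifts was not tested. The labels give no replicate numbers to block on, and the plasmid and TGF terms of the fit already match the libraries of both genotypes. Genes near 1 CPM rest on few reads: Gclc had 112 and Srxn1 29 over all libraries.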
